A study of Mus musculus with 5 samples.

Results

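The 34 genes described here are type I interferon response genes, a set of interferon-stimulated genes taken by symbol from the 55357 genes of the deposited tables. The set holds Ifit1, Ifit2, Ifit3, Ifit3b, Isg15, Rsad2, Irf7, Irf9, Stat2, Oas1a, Oas2, Oas3, Oasl1, Oasl2, Mx1, Mx2, Ifi27, Ifi35, Ifi44, Ifih1, Ddx58, Dhx58, Usp18, Bst2, Xaf1, Rtp4, Parp9, Parp12, Parp14, Cmpk2, Zbp1, Trim25, Eif2ak2 and Rnf213. All 34 symbols were found, and each had at least 1 UMI (unique molecular identifier, a count of 1 captured RNA molecule) in every library. They lie on 14 chromosomes of GRCm38, with 5 members each on chromosomes 5, 11 and 16 and 4 on chromosome 19, where Ifit1, Ifit2, Ifit3 and Ifit3b are neighbours.

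The libraries came from tibialis anterior muscle, a fast-twitch muscle of the lower hind limb, of female C57BL/6 mice aged 26 months. The libraries are those left by the submitters' own quality filter. The frail group (2 libraries, frail 1 and frail 2) comprised mice with a frailty index of at least 0.18, and the control group (3 libraries, control 1 to control 3) mice under 0.18. All animals were of the same old age, so there is no young reference, and the labels name no treatment or genetic change in either group. Each library stands for 1 mouse, so differences between mice and between library preparations cannot be told apart.

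Type I interferons are secreted when cells sense foreign or misplaced nucleic acid. They bind the receptor formed by Ifnar1 and Ifnar2, whose kinases Jak1 and Tyk2 activate a complex with Stat2 and Irf9 that enters the nucleus and binds the interferon-stimulated response element. The genes it switches on encode the sensors themselves, the transcription factors that sustain the response, and proteins that block translation, degrade RNA, trap virions or modify other proteins. Vessel lining cells and macrophages are among the cells that hold a low tonic level of this response in healthy tissue.

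A barcode was retained if 200 or more genes were seen in it and mitochondrial genes gave no more than 10% of its UMIs, which left 8650 to 12088 per library with a median of 5353 to 7005 UMIs. The share above the mitochondrial limit was 17.2% in frail 1 and 7.49% to 11.2% in the others. Of 56571 distinct barcode sequences, 348 occurred in more than 1 library, and any pair of libraries shared 27 to 49. The labels describe both a suspension of digested cells and sorted nuclei, so the unit is called a barcode. Lineages were gated by 1 gene each: Cdh5 (endothelium), Pdgfra (fibro-adipogenic stroma), Rgs5 (mural cells of vessels), C1qa (macrophages), Sox10 (Schwann cells) and Pax7 (satellite cells). Levels are plain CPM, the usual scaling of a gene's UMIs in a summed gate to a common total. A barcode entered a gate with at least 2 UMIs of the gate gene and more of it than of the other 5 together. The Cdh5 gate held 1548 to 3923 barcodes per library and the C1qa gate 266 to 651, whereas the Sox10 and Pax7 gates held 39 to 165 and 45 to 222. Summed over 8 other endothelial markers, the Cdh5 gate had 18132 to 44313 CPM, most of it from Fabp4. The Pdgfra gate had 368 to 1040 CPM of them, so the Cdh5 label held. The C1qa gate had 9807 to 13932 CPM of 8 macrophage markers beside 3489 to 6697 of 8 fibro-adipogenic ones. In the Pax7 gate 8 satellite markers summed to 3876 to 4386 CPM and the fibro-adipogenic ones to 1796 to 3438. The Rgs5 gate had 4770 to 7538 CPM of 8 mural markers but also 8235 to 22509 CPM of the endothelial markers, so it is not a clean mural population. Five-library values below are listed in the order frail 1, frail 2, control 1, control 2 and control 3.

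Core letters of the response element were looked for in the promoters of the members. Promoter sequences (250 bases before to 50 after the start, RefSeq, GRCm38.p6) were matched for 24 of the 34 members, and not for Oas2, Mx1, Mx2, Ifi27, Dhx58, Usp18, Rtp4, Parp9, Parp14 and Zbp1. The core of the element (GAAA, any 2 bases, GAAA, on either strand; on the other strand it reads TTTC, any 2 bases, TTTC) was present in 12 of the 24 and in 3.99% of the 27025 genes of the table. The STAT palindrome (TTC, any 3 bases, GAA), which can overlap the core, was present in 5 of the 24 (20.8%) against 9.55% of all genes. Sites of 7 members whose levels are described below are shown 5′ to 3′ in the direction of the gene, with 1 match of the core in capitals, so that the shared letters can be compared.
Isg15: tatgccgtagGAAAAGGAAAccgaaacaga
Bst2: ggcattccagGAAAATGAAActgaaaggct
Oas3: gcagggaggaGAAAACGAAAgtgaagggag
Ifit1: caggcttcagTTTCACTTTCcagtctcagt
Ifit3: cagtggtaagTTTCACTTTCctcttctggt
Rsad2: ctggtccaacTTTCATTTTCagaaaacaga
Stat2: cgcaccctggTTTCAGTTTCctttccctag
These lie at chr4:156200877-156200906 (minus strand, Isg15), chr8:71537583-71537612 (minus, Bst2), chr5:120777715-120777744 (minus, Oas3), chr19:34640775-34640804 (plus, Ifit1), chr19:34583363-34583392 (plus, Ifit3), chr12:26456553-26456582 (minus, Rsad2) and chr10:128270266-128270295 (plus, Stat2). The capitals begin 78 bases before the start in Isg15, 130 in Bst2, 75 in Oas3, 104 in Ifit1, 156 in Ifit3, 120 in Rsad2 and 222 in Stat2. Isg15 carries 3 overlapping matches of the core within its window, Bst2 carries 2 overlapping ones, and Ifit1 and Ifit3 carry 2 separate ones each. The 30 bases of Ifit3 recur letter for letter in the promoter of Ifit3b, its near-identical neighbour, and reads of these paralogs may have been split between them. Ddx58, Ifih1, Eif2ak2 and Oas1a complete the 12, while Trim25, Ifi44, Xaf1, Oasl1, Irf7 and Irf9 are among the matched members without these letters in the window. A match is a description of the sequence and not a measured binding site.

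The summed level of the members was highest in the endothelial gate and lowest in the satellite cell gate of every library. The score of a barcode is its member UMIs per 10000 of its UMIs. Its mean over Cdh5-gated barcodes was 45.1, 20.1, 27.4, 35.6 and 29.0, and over C1qa-gated barcodes 29.7, 13.8, 14.9, 18.7 and 20.6. The Rgs5 gate followed with 24.8, 13.7, 17.3, 28.0 and 17.6. Stroma and glia were lower: the Pdgfra gate gave 15.5, 8.59, 10.4, 12.0 and 15.2, and the Sox10 gate 12.4, 9.82, 11.3, 12.5 and 15.9. Pax7-gated barcodes had 8.79, 5.31, 7.32, 7.25 and 9.24. The second place belonged to C1qa in frail 1, frail 2 and control 3 and to Rgs5 in control 1 and control 2, so the order of those gates was not stable between mice.

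The frail libraries stood at opposite ends of the range. Frail 2 was lowest in every one of the 6 gates and over all retained barcodes. Frail 1 was highest over all barcodes and in the Cdh5, Pdgfra and C1qa gates, while control 2 was highest in the Rgs5 gate and control 3 in the Sox10 and Pax7 gates. In Cdh5-gated barcodes the mean of the frail libraries was 32.6 ± 17.7 (SD, n = 2) and that of the controls 30.7 ± 4.33 (SD, n = 3), so the controls lay between the frail mice. Relative to the control mean, frail 1 stood at 1.47 times and frail 2 at 0.65 times. The C1qa gate gave 21.7 ± 11.3 (SD, n = 2) against 18.1 ± 2.87 (SD, n = 3), with frail 1 at 1.65 times and frail 2 at 0.76 times the control mean. The score over the members was given no test.

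**Figure D1:**
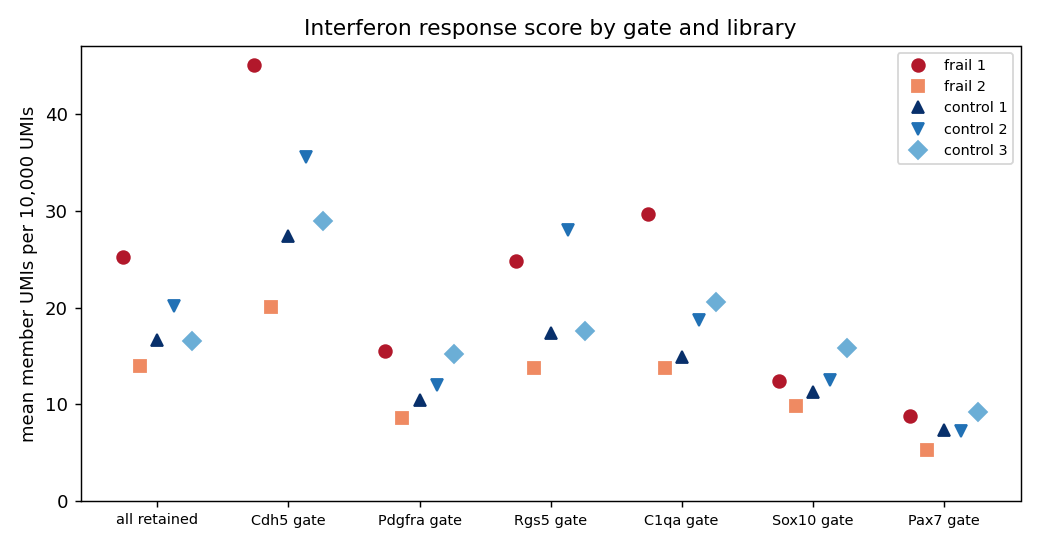
Mean score (member UMIs per 10000 UMIs of a barcode, vertical axis) for all retained barcodes and the 6 gates (horizontal axis); each symbol is 1 library, in red tones for frail and blue tones for control. Frail 1 (45.1) and frail 2 (20.1) enclose the 3 controls in the Cdh5 gate, and frail 2 is the lowest symbol in each column.

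The difference between mice reached most endothelial barcodes. Median scores in the Cdh5 gate were 40.1, 15.8, 20.8, 27.8 and 22.5. The lower quartile of frail 1 (27.9) was above the upper quartile of frail 2 (23.9). When each barcode was thinned to 2000 UMIs, the share of Cdh5-gated barcodes with at least 5 member UMIs was 81.0%, 31.2%, 45.2%, 60.3% and 49.2%. Unthinned shares were 95.8%, 66.8%, 79.0%, 86.8% and 83.1%, and 101 to 261 shallower barcodes per library were left out by the thinning. The same share in Pax7-gated barcodes was 7.48%, 5.76%, 6.00%, 2.22% and 6.31% at a median of 6307 to 7302 UMIs before thinning. C1qa-gated barcodes reached 50.2%, 18.2%, 20.03%, 27.4% and 29.9%. The order frail 1 first and frail 2 last held in both gates at equal depth.

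**Figure D2:**
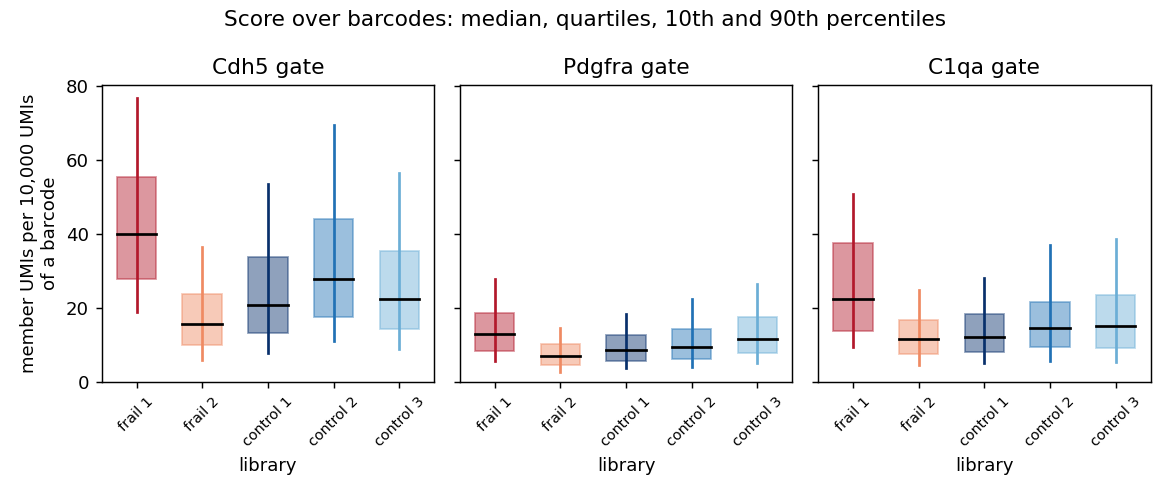
Distribution of the score over barcodes in the Cdh5, Pdgfra and C1qa gates (vertical axis, member UMIs per 10000 UMIs; horizontal axis, library); black lines are medians, boxes quartiles and vertical lines the 10th to 90th percentiles. In the endothelial panel the box of frail 1 (27.9 and up) lies clear of that of frail 2 (up to 23.9), while the lines overlap.

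Barcodes with many UMIs of one set of members were compared for the UMIs of another. The 34 members were split alternately by alphabet into a set A and a set B of 17 each, barcodes were thinned to 2000 UMIs, and the 10% of barcodes with most set A UMIs were compared with the rest for set B. In the Cdh5 gate this top group had 2.12, 3.00, 3.40, 2.27 and 2.95 times the set B UMIs of the rest. The C1qa gate gave 3.82, 2.24, 2.56, 3.20 and 4.07 times, and the Pdgfra gate 2.19, 2.48, 1.82, 2.53 and 3.06 times. All 15 of these ratios were above 1, the lowest being that of stroma in control 1. These are ratios of sums over 17 members, not of single members, and they carry no test.

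The split between the frail mice was found along most of the vascular tree. Cdh5-gated barcodes were placed on the capillary (Rgcc, Gpihbp1, Car4, Cd36), arterial (Gja4, Hey1, Sox17, Stmn2), venous (Vwf, Lrg1, Ackr1, Selp) or lymphatic (Prox1, Lyve1, Mmrn1, Flt4) list with most UMIs. Capillary barcodes, 84.3% to 95.6% of the gate, had mean scores of 45.9, 20.3, 27.5, 35.7 and 29.6. Arterial barcodes (26 to 217 per library) had 48.3, 16.9, 35.1, 40.2 and 28.3. Venous barcodes (33 to 98) had 33.1, 14.5, 26.3, 34.3 and 21.9, so frail 1 was under control 2 there. Lymphatic barcodes numbered 5 to 15 per library and had 18.9, 10.9, 8.66, 24.6 and 10.1, too few to place the mice.

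Other features of the Cdh5 gate also differed between the libraries. The summed CPM of the 8 endothelial markers was 18324, 44313, 27775, 24128 and 18132, of which the fatty acid carrier Fabp4 gave 13693, 37212, 22046, 18952 and 13449. Frail 2, the lowest in interferon response, was thus the highest in these markers, but frail 1 and control 3 were alike in them. Myofibre transcripts (Acta1, Ckm and 6 others) summed to 83.1, 256, 2211, 3116 and 2234 CPM, low in both frail libraries. Macrophage markers summed to 34.6, 74.5, 99.9, 108 and 72.7 CPM, lowest in frail 1, and lymphocyte markers to 8.24, 21.9, 18.4, 28.7 and 31.0 CPM. Mural markers summed to 1071, 569, 540, 554 and 779 CPM, highest in frail 1, with frail 2 within the range of the controls. The median mitochondrial share in the gate was 5.43%, 4.77%, 4.04%, 4.11% and 5.16%. With that limit lowered to 5%, frail 1 was highest for 25 and frail 2 lowest for 23 of the members in the Cdh5 gate. The part of these marker levels in the result was not tested.

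Set against the mean of the other 5 gates, the members were mostly endothelial and macrophage genes. Gate sums of the 5 libraries were fitted together with the library as a block (edgeR's quasi-likelihood test, Benjamini-Hochberg adjusted p under 0.05), and all 34 members were tested. In the Cdh5 gate 29 members were higher, against 29.7% of all 15814 genes tested, and 0 were lower, against 28.5%. The median difference of the members was 1.17 on the log2 scale, against -0.01 for all genes. The C1qa gate had 25 higher (28.8% of all genes) and 2 lower (30.8%), Ifi35 and Ifi27. The Pdgfra gate had 4 higher (32.5%) and 11 lower (24.2%), the Sox10 gate 0 higher (18.6%) and 17 lower (24.1%), and the Pax7 gate 0 higher (18.8%) and 29 lower (27.3%). The Rgs5 gate had 18 higher (28.8%) and 2 lower (16.3%). An alternative gate admitted no UMI of any other gate gene and also lowered the limit for the gate gene from 2 UMIs to 1. Under it the Rgs5 counts turned to 2 higher and 17 lower, where 3319 and 2443 of 14471 genes were called. The alternative gate also gave 5 members higher and 2 lower in the Pdgfra gate, where 3657 and 3927 genes were called. It took the member median there from -0.19 to 0.059. In the Pax7 gate it gave 18 members lower, where 3555 genes were.

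Among members with an average log2 CPM of at least 3, the largest rises in the endothelial gate were those of Ifi44, Rsad2, Oas2 and Bst2. Ifi44, a cytoplasmic interferon-induced protein, had 40.0, 15.9, 32.0, 23.6 and 31.7 CPM there and 0 to 2.03 CPM in the Pax7 gate, a difference from the mean of the other gates of 3.48 ± 0.21 (log2, SE; adjusted p = 2.82e-14). Rsad2 (viperin), which makes a chain-terminating nucleotide, had 276, 175, 214, 368 and 244 CPM and a difference of 3.19 ± 0.20 (adjusted p = 1.3e-12). For Oas2, an oligoadenylate synthetase that activates RNase L, the difference was 2.18 ± 0.22 (adjusted p = 7.39e-10). That for Bst2 (tetherin), which holds budding virions at the membrane, was 2.11 ± 0.10 (adjusted p = 1.43e-17). Oas1a, a synthetase under that limit and named after its values were seen, differed by 2.96 ± 0.39 (adjusted p = 3.85e-07). Its difference was larger in the C1qa gate, at 4.68 ± 0.30 (adjusted p = 5.09e-13 in edgeR). Zbp1, Oas3, Dhx58, Ifi27 and Mx1 were the 5 members that did not pass in this gate.

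In macrophages genes of the synthetase family and Mx1 stood out. Oasl1, which restrains translation of Irf7, had 137, 19.7, 17.8, 25.8 and 71.1 CPM in the C1qa gate and 6.98 to 13.4 CPM in the Cdh5 gate, and differed from the mean of the other gates by 4.02 ± 0.29 (log2, SE; adjusted p = 1.1e-11). Oas2 had 29.6, 29.2, 33.2, 47.0 and 36.2 CPM and a difference of 3.68 ± 0.20 (adjusted p = 3.34e-16). Zbp1, a sensor of Z-form nucleic acid that can start necroptosis, differed by 2.11 ± 0.26 (adjusted p = 1.91e-07). Trim25, a ubiquitin ligase that activates RIG-I, differed by 1.60 ± 0.11 (adjusted p = 4.4e-13). Oas3 and Mx1 also passed in this gate. Oas3 had 6.83, 5.43, 10.4, 17.3 and 17.1 CPM in the C1qa gate and 0.15 to 1.11 CPM in the Cdh5 gate. No UMI of Oas3 was seen in the Sox10 or the Pax7 gate of any library. Mx1 had 24.7, 8.58, 10.2, 14.8 and 15.2 CPM in the C1qa gate and 0.87, 0.29, 0.43, 0.94 and 2.43 in the Cdh5 gate.

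In stroma the 4 higher members were Zbp1, Oasl2, Ifi27 and Usp18. Zbp1 had 22.2, 7.56, 13.7, 19.2 and 15.6 CPM in the Pdgfra gate, a difference of 0.76 ± 0.26 (log2, SE; adjusted p = 0.0174). Oasl2 differed by 0.52 ± 0.10 (adjusted p = 2.9e-05), the mitochondrial protein Ifi27 by 0.44 ± 0.06 (adjusted p = 9.3e-07), and Usp18, which strips Isg15 from its targets and restrains the receptor, by 0.38 ± 0.13 (adjusted p = 0.0117). The calls of Zbp1 and Usp18 were lost without frail 2 (adjusted p = 0.0811 and 0.0604 in edgeR) and without control 2 (0.0763 and 0.0600), and that of Zbp1 also without control 1 (0.0741) or control 3 (0.0602). Ifi44 and Rsad2, the leading endothelial members, were each 1.87 lower on the log2 scale in stroma (-1.87 for both). In the Rgs5 gate the largest rises at an average log2 CPM of at least 3 were those of Rsad2, Ifi44, Oas2 and Ifit1, with differences of 2.26 ± 0.21, 2.10 ± 0.25, 1.28 ± 0.26 and 1.21 ± 0.33 (log2, SE). Under the gate that admits no other gate gene, Rsad2 fell to 0.28 and lost its call (adjusted p = 0.375 in edgeR), and the other 3 turned to -0.92 (Ifi44), -0.71 (Oas2) and -0.66 (Ifit1). Ifit1 also lost its call without control 2 (adjusted p = 0.103 in edgeR).

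**Figure D3:**
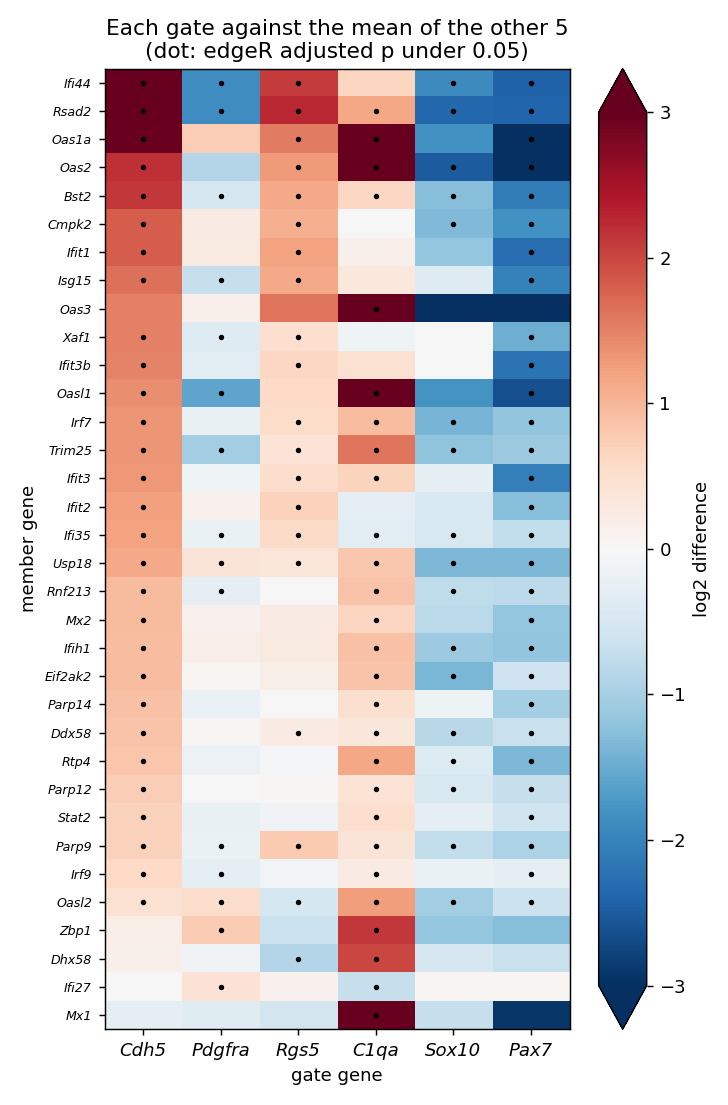
Log2 difference between each gate (horizontal axis) and the mean of the other 5 gates for the 34 members (vertical axis), in red where higher and blue where lower; a dot marks an adjusted p under 0.05 in edgeR. The Cdh5 column has 29 red cells with a dot, the Pax7 column 29 blue ones, and Ifi44 and Rsad2 lead the endothelial column.

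Over all retained barcodes frail 1 was the highest library for 22 of 34 members (17.4% of all 19989 genes tested) and frail 2 the lowest for 24 (17%), and both held for 17 (4.74%). Both frail libraries lay above every control for 0 members (9.81%) and under every control for 2 (9.94%), Oas3 and Dhx58. Within the endothelial gate the frail mice were again at opposite ends. Frail 1 was the highest library for 22 of 34 members, against 16.7% of all 15189 genes tested, and frail 2 the lowest for 25, against 16.1%. Both held for 17 members, against 5.44% of all genes. Both frail libraries lay above every control for 0 members (7.43% of all genes) and under every control for 0 (7.51%). The ratio of frail 1 to frail 2 had a median of 1.90 over the members and was above 1 for 33. On the scale of log2(CPM + 1), the median of that ratio was 0.79 for the members and -0.12 for all genes.

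Among the sensors, Zbp1 differed most between the frail mice. Its level in the Cdh5 gate was 57.8, 2.59, 5.26, 10.9 and 9.29 CPM, so frail 1 was far above the other 4 libraries and had 22.4 times the level of frail 2. Ifih1 and Ddx58, helicases that sense double-stranded RNA, had 76.5, 50.3, 57.8, 44.6 and 58.5 CPM and 50.3, 42.1, 42.7, 35.9 and 51.6 CPM. Control 2 was lowest for both, and frail 2 lay within the range of the controls. Dhx58, a helicase without the signalling domain of the other pair, had 5.24, 5.12, 5.19, 4.38 and 7.63 CPM. Trim25 ran the other way, with 92.5, 134, 97.8, 144 and 118 CPM: it was the 1 member with frail 1 lowest.

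The transcription factors of the response followed the main pattern. Stat2 had 133, 58.2, 67.0, 62.6 and 75.3 CPM in the Cdh5 gate, Irf9 had 134, 69.9, 94.0, 96.5 and 105, and Irf7, which amplifies interferon transcription, had 108, 50.5, 76.0, 82.4 and 64.8. For all 3 factors frail 1 was highest and frail 2 lowest, with the controls between and not overlapping either. The ratio of frail 1 to frail 2 was 2.28 for Stat2, 1.91 for Irf9 and 2.14 for Irf7.

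The Ifit proteins, which bind foreign RNA at its end, split within the family. Ifit2 had 145, 33.4, 59.2, 63.3 and 61.5 CPM, Ifit3 had 100.1, 26.2, 47.0, 52.8 and 55.1, and Ifit3b had 27.3, 9.47, 14.0, 17.9 and 15.0. These 3 had frail 1 alone at the top and the controls close to each other. Ifit1 had 199, 56.0, 192, 369 and 144 CPM, with control 2 highest and frail 1 inside the range of the controls. Isg15, a ubiquitin-like modifier, had 386, 150, 135, 378 and 231 CPM, with frail 1 and control 2 level at the top and control 1 lowest. Rsad2 shared the peak in control 2 (368 CPM, against 276 in frail 1).

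The other antiviral effectors ranged from a strong split to nearly none. Bst2 had 1147, 299, 532, 638 and 443 CPM and made up 26.6%, 15.3%, 20.1%, 18.9% and 16.3% of the member UMIs of the gate. Its frail 1 level was above every other library and its frail 2 level under every other. Mx2, annotated as a polymorphic pseudogene in GENCODE vM21, had 47.0, 7.91, 18.6, 23.2 and 36.6 CPM. Xaf1, a cofactor of cell death, had 193, 82.9, 103, 99.4 and 91.1 CPM, and Rtp4, a chaperone of receptors, had 104, 46.4, 70.1, 89.1 and 56.2. Both had frail 1 highest and frail 2 lowest. Cmpk2, a mitochondrial nucleotide kinase encoded beside Rsad2 on chromosome 12, had 62.4, 31.6, 40.1, 47.4 and 54.6 CPM, and Ifi44 had the frail 1 and frail 2 ends of its range as well. Ifi27 (193, 140, 182, 177 and 166 CPM) and Ifi35 (117, 88.3, 102, 118 and 92.9 CPM) spanned under 1.5-fold. Eif2ak2, the RNA-activated kinase that blocks translation, and Rnf213, a large ubiquitin ligase, were lowest in control 2 and highest in frail 1.

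The genes of the ADP-ribosyl transferase and synthetase families differed in which library was highest. Parp14 had 237, 126, 143, 138 and 177 CPM and Parp9 59.5, 34.2, 42.5, 45.2 and 40.9, both with frail 1 highest and frail 2 lowest. Parp12 was flat at 38.7, 37.8, 41.0, 41.8 and 30.0 CPM. Oasl2 had 74.6, 42.7, 48.7, 50.6 and 62.3 CPM and Oas1a 12.1, 6.78, 7.89, 5.64 and 8.63. Oas2, Oas3, Oasl1 and Mx1 were highest in control 3 and lowest in frail 2, and Oas3 and Mx1 rested on 3 to 22 UMIs per library. Usp18 had 28.8, 17.9, 24.9, 29.2 and 27.4 CPM, so only frail 2 was apart.

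**Figure D4:**
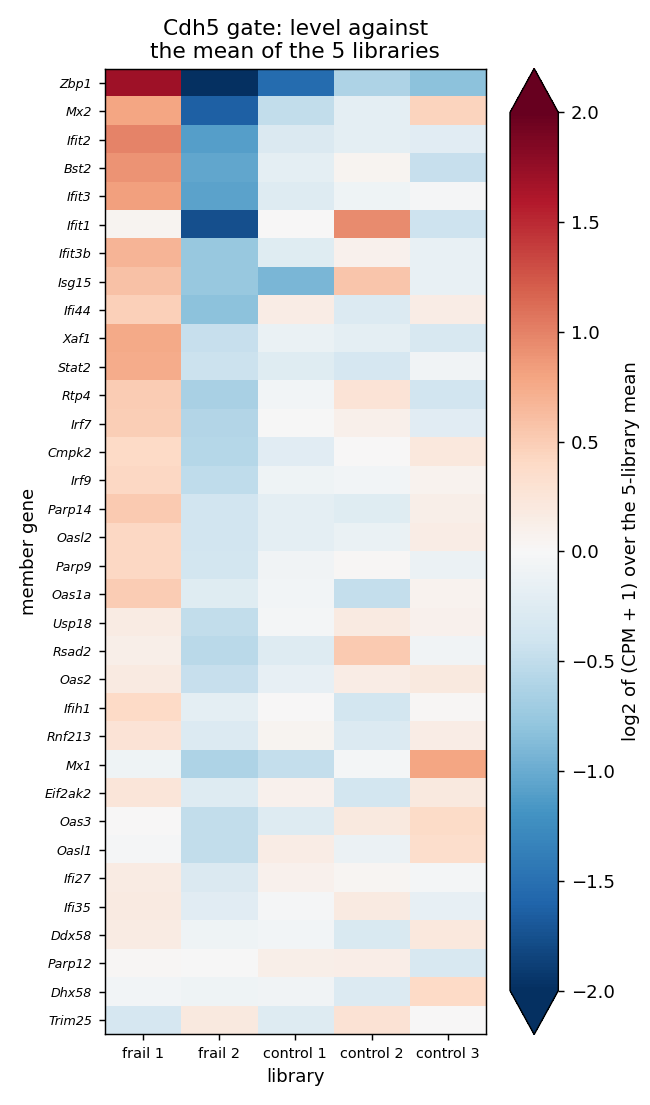
Level of each of the 34 members (vertical axis) in the Cdh5 gate of each library (horizontal axis), as log2(CPM + 1) relative to the mean of the 5 libraries, red above and blue below. The frail 1 column is mostly red and the frail 2 column mostly blue, with Zbp1 at the top spanning the widest range and Trim25 at the bottom reversed.

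No member differed between the frail and the control group by the test across all genes. Frail was compared with control by edgeR's quasi-likelihood test on the UMI sums of 2 and 3 libraries. Over all retained barcodes 0 of 34 members passed, where 0% of 19989 genes did, and in the Cdh5 gate 0 of 34, where 0.125% of genes did. The count at an unadjusted p under 0.05 was 0 in both, where 1119 of 19989 and 607 of 15189 genes were under it. DESeq2 called 0 members in both, with 1 and 0 at an unadjusted p under 0.05, where 1315 and 581 genes were. The member median was 0.039 over all barcodes and 0.072 in the Cdh5 gate (log2 frail over control), beside 0.0018 and 0.0069 for all genes tested. Leaving out frail 1 took it to -0.44 and -0.64, and leaving out frail 2 to 0.37 and 0.52, so the direction was set by which frail mouse was in the fit. No member passed the adjusted threshold in either case.

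Bst2 changed by 0.45 ± 0.55 (log2 frail over control, SE) in the Cdh5 gate, from a control level of 538 ± 98.0 CPM (SD, n = 3) to 723 ± 600 (SD, n = 2), at an adjusted p of 0.999. Without frail 1 the same change was -0.93. Isg15 changed by 0.13 ± 0.56 and turned to -0.80 without frail 1 and to -0.18 without control 1. Ifit1 changed by -0.88 ± 0.70, from 235 ± 118 CPM (SD, n = 3) to 127 ± 101 (SD, n = 2). The changes of Rsad2 (-0.28 ± 0.33), Ifi27 (-0.07 ± 0.23), Parp14 (0.27 ± 0.29), Trim25 (-0.11 ± 0.23) and Xaf1 (0.51 ± 0.36) had the same adjusted p, 0.999. Over all barcodes these 8 members changed by -0.76 (Ifit1) to 0.54 (Xaf1), with adjusted p from 0.935 to 0.995.

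In macrophages frail 1 was again the highest library for most members. In the C1qa gate frail 1 was highest for 21 of 34 members, against 16.1% of the 13034 genes tested, frail 2 lowest for 25, against 16.2%, and both held for 15, against 5.21%. Under the gate that admits no other gate gene, frail 1 was highest for 23 and frail 2 lowest for 11. Both frail libraries lay above every control for 0 members (8.77%) and under every control for 3 (8.83%), namely Oas2, Oas3 and Ddx58. Isg15 had 319, 62.6, 32.5, 93.5 and 128 CPM, Ifit1 had 158, 26.0, 24.9, 42.8 and 94.5, and Ifit2 had 84.2, 11.4, 9.30, 17.5 and 36.4. For these, and for Rsad2 (145, 46.6, 31.4, 57.7 and 122 CPM) and Oasl1, control 1 and not frail 2 was lowest, and control 3 was second to frail 1. Ifih1 had 117, 32.9, 37.8, 38.9 and 55.3 CPM, so frail 1 had more than any other library. Trim25 ran otherwise, with 122, 174, 127, 129 and 98.0 CPM, highest in frail 2 and lowest in control 3. In this gate the macrophage markers summed to 11009, 11479, 13932, 12753 and 9807 CPM and the endothelial markers to 1628, 2876, 853, 908 and 826. The mural markers summed to 1566, 187, 798, 978 and 730 CPM, highest in frail 1 and lowest in frail 2 like most members. The part of these marker levels in the result was not tested.

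The test in the C1qa gate passed 0 of 34 members, where 0% of genes passed. DESeq2 called 0 members. In edgeR 1 member had an unadjusted p under 0.05, where 621 of the 13034 genes tested did. That member was Oas3, at -1.29 ± 0.34 (log2, SE; adjusted p = 0.694), with both frail libraries (6.83 and 5.43 CPM) under the controls (10.4 to 17.3). With no filter on low counts Oas3 was called lower, at an adjusted p of 0.0198 in edgeR. Oas2 changed by -0.41 ± 0.22 and Rnf213 by -0.47 ± 0.26, both at an adjusted p of 1.00. The member median of 0.060 became -0.69 without frail 1 and 0.60 without frail 2.

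**Figure D5:**
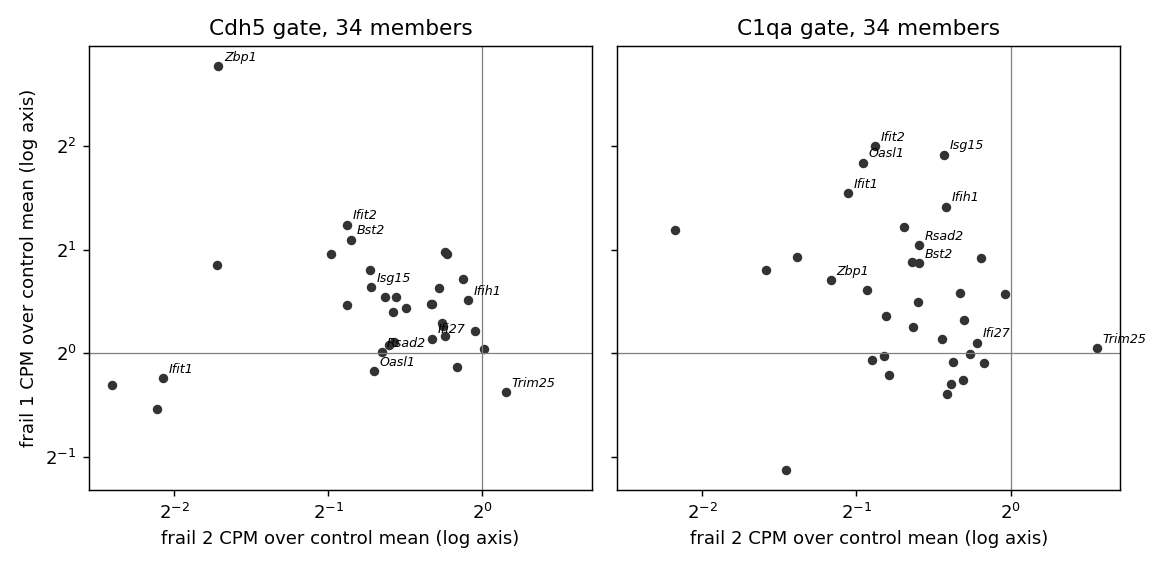
Level of each member in frail 1 (vertical axis) and in frail 2 (horizontal axis), each divided by the mean of the 3 controls, for the Cdh5 gate (left) and the C1qa gate (right); both axes are logarithmic and grey lines mark a ratio of 1. Most points lie above the horizontal line and left of the vertical one, as does Zbp1 at 6.82 (frail 1) and 0.31 (frail 2) in the Cdh5 gate, while Trim25 lies to the right.

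The other gates were read in the same way. In the Pdgfra gate frail 2 was lowest for 23 of 33 members tested (19.8% of genes) and frail 1 highest for 9 (18.5%), with both for 6 (5.69%). Control 3 was highest for 21, a count for which the share of all genes was not computed. Both frail libraries lay above every control for 0 members (9.55%) and under every control for 2 (9.17%), Oas1a and Parp12. Ifit1 there had 94.1, 22.5, 58.2, 86.0 and 112 CPM. The Rgs5 gate had frail 2 lowest for 23 of 33 (16.9%) and frail 1 highest for 15 (17.2%), with both for 13 (5.24%). Control 2 was highest for 14 in that gate, again without a share of all genes. Both frail libraries were above the controls there for 1 member (9.9%), Ifih1, and under them for 1 (8.27%), Oasl1. Under the gate that admits no other gate gene, frail 2 was lowest for 9 and frail 1 highest for 11 members in the Rgs5 gate. The Sox10 gate had frail 2 lowest for 9 of 22 (15.5%) and frail 1 highest for 1 (14.8%), with both for 1 (2.8%), both frail libraries above the controls for 1 (8.14%) and both under them for 3 (7.95%). The Pax7 gate had frail 2 lowest for 10 of 21 (18.6%) and frail 1 highest for 6 (23%), with both for 2 (5.09%), both frail libraries above for 0 (10.2%) and both under for 4 (7.92%). Oas3 did not pass the filter on low counts in the Pdgfra and Rgs5 gates, and 12 and 13 members did not pass it in the Sox10 and Pax7 gates.

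Frail against control called 0 members in these gates as well, where 0.0373% (Pdgfra), 0% (Rgs5), 0% (Sox10) and 0.0572% (Pax7) of genes were called. DESeq2 called 0 in each, with 1, 1, 0 and 1 at an unadjusted p under 0.05, where 853 (Pdgfra), 574 (Rgs5) and 102 (Sox10) genes were. Of genes tested in edgeR, 866 of 16091 (Pdgfra), 608 of 14986 (Rgs5) and 259 of 8738 (Sox10) had such a p. For the Pax7 gate the count over all genes is not given here, so its member counts are not read against it. Among members an unadjusted p under 0.05 was reached in edgeR by 1, 1, 3 and 4. Those members were Oas1a in the Pdgfra gate (-1.04 ± 0.36, log2, SE; adjusted p = 0.806), Oasl1 in the Rgs5 gate (-0.75 ± 0.28; adjusted p = 1.00), and Ifit3, Oasl2 and Irf9 in the Sox10 gate (-0.85 ± 0.38, -0.85 ± 0.39 and -0.61 ± 0.29). In the Pax7 gate Irf7 changed by -1.39 ± 0.52, Ifit1 by -1.17 ± 0.45 Oasl2 by -0.88 ± 0.37 and Irf9 by -0.58 ± 0.27, at an adjusted p of 0.999. Irf7 had 15.2, 4.68, 20.04, 43.0 and 20.7 CPM there, so both frail libraries were under every control, in sums of 45 to 222 barcodes. Next by unadjusted p came Usp18 (-0.30 ± 0.21) and Rtp4 (-0.39 ± 0.33) in the Pdgfra gate, and Ifit1 (-1.67 ± 0.78) and Usp18 (-0.53 ± 0.30) in the Rgs5 gate.

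The frail effect itself was compared between the Cdh5 gate and each other gate by limma on the within-library difference of log2 CPM. Of 34 members, 0 differed in each of the 5 pairs of gates, where 0% of genes did. The smallest adjusted p of a member was 0.822, for Irf7 in the Cdh5 gate against the Pax7 gate, where the effect was 1.34 higher on the log2 scale in the Cdh5 gate. At an unadjusted p under 0.05 there were 2, 0, 2, 1 and 1 members against the Pdgfra, Rgs5, C1qa, Sox10 and Pax7 gates. The share of all genes under that p is not given here, so these counts are not read as a result about the members.

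Upstream of the members, the transcript of interferon beta, Ifnb1, was counted mainly in macrophage barcodes. It had 86, 1, 4, 5 and 42 UMIs over all retained barcodes, of which 77, 1, 1, 4 and 29 lay in the C1qa gate. In that gate they came from 11, 1, 1, 3 and 11 barcodes of 266, 391, 651, 529 and 595, and a single barcode held 36 of the 77 in frail 1 and 12 of the 29 in control 3. The level in the gate was 29.2, 0.29, 0.16, 0.78 and 6.29 CPM. Of the other 17 listed type I ligand genes, Ifnz had 8 to 19 UMIs per library, Ifnab 0 to 5, and the remaining 15 at most 2. Interferon gamma (Ifng), the type II ligand, had 119, 390, 43, 47 and 290 UMIs and did not follow the members, since frail 2 was highest.

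Receptors, kinases and negative regulators of the pathway were described the same way. In the Cdh5 gate frail 1 was highest for 2 and frail 2 lowest for 1 of the 8 receptor and kinase genes tested. Ifnar2 had 81.5, 115, 80.2, 71.2 and 64.5 CPM, highest in frail 2, and Jak1 had 222, 162, 213, 219 and 215 CPM. Ifngr1 had 250.4, 327, 299, 355 and 254 CPM and Il10rb 76.0, 128, 81.7, 84.2 and 71.8. The genes listed as negative regulators, 9 tested, had frail 1 highest for 3 and frail 2 lowest for 3. Socs3 was level at 569, 605, 532, 519 and 560 CPM. Ube2l6, on that list although it conjugates Isg15, had 51.5, 24.99, 33.1, 33.5 and 27.5. Of 10 tested sensors and adaptors outside the members, frail 1 was highest for 1 and frail 2 lowest for 2, with Sting1 at 34.1, 43.9, 50.5, 46.2 and 42.2 CPM.

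Transcription factors outside the members were divided. Frail 2 was lowest for 6 and frail 1 highest for 4 of 9 tested in the Cdh5 gate. Irf1, induced by both interferon types, had 642, 330, 570, 536 and 657 CPM, low in frail 2 alone. Irf2 had 196, 144, 142, 151 and 136 CPM, and Stat3 163, 145, 187, 185 and 165.

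Other interferon-induced lists were read in the same gate. All 15 interferon-inducible GTPases had frail 1 highest in the Cdh5 gate and 13 had frail 2 lowest; their summed level was 4330, 1093, 1873, 2253 and 1570 CPM, and Iigp1 alone had 1213, 456, 750, 907 and 673. Of 16 class I presentation genes, frail 1 was highest for 16 and frail 2 lowest for 11, with B2m at 2879, 1418, 2134, 2668 and 1695 CPM. Of 30 tested other type I induced genes, frail 1 was highest for 13 and frail 2 lowest for 17, and Ifitm3 had 3003, 1377, 2364, 2445 and 2210 CPM. Of the 4 interferon-induced chemokines, frail 1 was highest for 1 and frail 2 lowest for 3, and Cxcl10 had 118, 39.5, 148, 184 and 165 CPM, with frail 1 under every control. The frail against control test called 0 genes of each of these lists in the Cdh5 gate.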

How the data were processed

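The deposited values are UMI counts per gene and barcode for 5 libraries of 10x Chromium 3′ chemistry. Per the file headers, Cell Ranger 7.0.0 made the matrices; Seurat 4.1.2 and GRCm38 appear in the submitters' processing notes. No source used here gives the annotation or the rule by which barcodes were called. Libraries held 9791 to 13303 barcodes and 68170531 to 90942121 counts. Barcodes were filtered and gated as described. No doublet caller was used in the main analysis, and Scrublet removal at 0.4% per 1000 barcodes was an alternative.

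UMI counts were summed per library and gate, with each library as 1 replicate, and fitted in edgeR 4.0.16 (robust quasi-likelihood, TMM, filterByExpr, Benjamini-Hochberg over all genes tested, threshold 0.05) and alternatively DESeq2 1.42.0. Differences of effects were tested with limma 3.58.1 (prior count 2). R 4.3.3, Python 3.11.15 and scanpy 1.11.5 were used, and scripts were tested on simulated data. An exact permutation test of 2 against 3 libraries cannot give a p under 0.1.

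The members and lists were chosen with earlier results of these data known. Fold changes are printed for the 8 members with the highest mean CPM in the Cdh5 gate (all barcodes and Cdh5 gate), for the 3 with the smallest unadjusted p in each other gate, and for the 4 largest called rises of each gate at an average log2 CPM of at least 3. Other lists are represented by up to 4 genes with the highest mean CPM. Gene positions are from GENCODE vM21. Alternatives are in the closing section.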

Additional observations from a re-analysis of the deposited data

How the results depend on the processing

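Of the summary results, 313 recomputed values stayed within a set limit of the main value and 29 did not. For counts the limit was a fixed fold. For score differences and thinned shares it was the pooled SD between libraries, so a value could turn sign and still count as kept. The number of members called between frail and control was 0 under every alternative run (RLE factors, DESeq2, no low-count filter, strict gate, mitochondrial limit 5%, Scrublet removal, each library left out), except 1 in the C1qa gate with no low-count filter. With no filter the Pdgfra gate had 7 members higher and 7 lower. Under the strict gate (at least 1 UMI of the gate gene and none of the others), members lower numbered 2 in Pdgfra, 17 in Rgs5, 1 in C1qa and 18 in Pax7, members higher 2 in Rgs5 and 1 in Sox10, and frail 2 was lowest for 9 in Rgs5 and 11 in C1qa. Frail 1 was highest for 2 members in the Sox10 gate under the strict gate and at the 5% limit. Leaving out 1 library in turn gave 0 to 1 members lower in Cdh5, 2 to 4 higher in Pdgfra (2 without frail 2 or control 2), 10 to 17 higher in Rgs5 (10 without control 2) and 2 to 4 lower in Rgs5. For the no-filter and leave-one-out gate counts, and the strict C1qa and Sox10 ones, the share of all genes is not given. The same holds for the highest and lowest counts under the strict gate and the 5% limit. Changes in these counts are therefore not read as changes of the members. With 1 library left out in turn, the frail minus control difference of the score ranged from -3.82 to 7.46 over all barcodes. It ranged from -10.6 to 14.4 in Cdh5, from -3.97 to 2.94 in Pdgfra and from -7.26 to 3.83 in Rgs5. In C1qa the range was -4.30 to 11.7 and in Pax7 -2.63 to 0.85. In each of these the ends are without frail 1 and without frail 2. The share of C1qa barcodes with a member UMI differed by 5.50 percentage points after thinning to 1000 UMIs, against 1.41 at 2000. Leaving Bst2 out of the score, chosen after seeing the data, took the Cdh5 difference from 1.90 to -0.01. The causes were not tested.

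Changes of named members turned sign in 30 recomputed values. Leaving out 1 library in turn, the log2 change over all barcodes ranged from -0.60 to 1.11 for Bst2, -0.56 to 0.81 for Isg15, -0.43 to 0.39 for Rsad2, -0.45 to 0.40 for Ifi27, -0.22 to 0.48 for Parp14, -0.27 to 0.27 for Trim25 and -0.096 to 0.98 for Xaf1. In Cdh5 it ranged from -0.93 to 1.14 for Bst2, -0.80 to 0.69 for Isg15, -0.73 to 0.058 for Rsad2, -0.40 to 0.20 for Ifi27, -0.34 to 0.70 for Parp14, -0.32 to 0.088 for Trim25 and -0.31 to 1.04 for Xaf1, and in Pdgfra from -1.10 to 0.091 for Rtp4. The sign turned without frail 1 or frail 2 for each of these 8 members, and also without a control library for Isg15 (control 1), Rsad2 (control 2), Ifi27 over all barcodes (control 2) and Trim25 (control 1 or 3 over all barcodes, control 2 in Cdh5). At the 5% limit Trim25 over all barcodes was -0.077. Under the strict gate Oasl1 in Rgs5 was 1.00, and Ifi44, Oas2 and Ifit1 in Rgs5 against the other gates were -0.92, -0.71 and -0.66. DESeq2 called 290 genes over all barcodes and 114 in Cdh5, against 0 and 19 in edgeR.

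Frail and control libraries share label numbers 1 and 2 only. Deviations of same-numbered libraries from their group means correlated at -0.018 (number 1) and 0.17 (number 2) over 20060 genes. With 2 frail libraries, the deviations of frail 1 and frail 2 mirror each other. These correlations therefore cannot decide whether same-numbered libraries were paired, and the labels state no pairing. A replicate block on that number called 366 genes over all barcodes, against 0 without it, and 0 members in each of the 7 frail against control fits. With the block 1 member differed between the Cdh5 and C1qa effects and 2 between Cdh5 and Sox10, where 25 of 15625 and 111 of 15331 genes did, and Trim25 over all barcodes became -0.13 and Bst2 in Cdh5 -0.039. Low counts limit Oas3 and Mx1 in Cdh5 (3 to 22 UMIs per library), and 12 and 13 members were not tested in Sox10 and Pax7.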
